A study of Mus musculus with 5 samples.

Results

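The 30 genes described here encode proteins that fold, import, watch over and remove proteins in the endoplasmic reticulum (ER). They were taken by symbol from a list drawn up with earlier results of these data known, by a rule that itself uses no measured value, and all 30 were among the 11194 genes of the count table. The RNA came from anti-Staufen1 immunoprecipitates (RIP-seq) of quiescent mouse skeletal muscle stem cells, the resident precursors of muscle fibres. Staufen1 binds double-stranded stretches of RNA. 3 libraries came from wild type mice (genotype Stau+/+, wild type 1 to 3) and 2 from Staufen knockout mice (genotype Stau-/-, knockout 1 and 2). Both groups were precipitated with the same rabbit antibody, no other treatment was labelled, and the labels give no age, no targeting strategy and no word on whether libraries came from separate animals. Every p-value is therefore set against the spread among these 5 libraries alone, and that spread may be technical.

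All 5 libraries were precipitates, with no input library used here, so a transcript's abundance in the cell cannot be told apart from how well the antibody recovered it. Totals were 33846391 to 105473455 counts in wild type and 3091302 to 9370244 in knockout, so the knockout libraries were the shallower ones. No member had fewer than 40 counts in any library. Stau1 itself, at 104.3, 126.8 and 118.2 CPM (counts scaled to a common library total after TMM adjustment) against 109.0 and 110.7 CPM, did not check the labels, since counts over a whole gene cannot show the loss of a part of it or of the protein. Groups are named by their labels throughout. By edgeR's quasi-likelihood test at an adjusted p under 0.05, the share of all genes called was 1.05% towards wild type and 1.0% towards knockout, and the cell type markers below are read against it. Of 12 muscle stem cell markers, which include Pax7 and Myf5, 3 were higher in wild type and 0 in knockout, and their summed level was 5129 to 5795 CPM against 3288 to 3350.4 CPM. Of 18 endothelial markers 6 passed, all higher in knockout, with 1748 to 2424 CPM in wild type and 3649 to 3927 CPM in knockout. Of 14 muscle fibre markers 1 was higher in knockout, and their sum was 3234 CPM in knockout 2 against 718 to 994 CPM in the other 4 libraries. Of the other marker lists, 3 of 5 red blood cell genes and 1 of 10 Schwann cell genes were higher in knockout, 2 of 14 fibro-adipogenic progenitor genes were higher in wild type and 1 in knockout, and 0 of 11 leukocyte and 0 of 12 pericyte genes passed. The summed fibro-adipogenic level was 4511 to 6851 CPM in wild type and 3861 to 3950.1 CPM in knockout. No gene of these lists was at 0 in any library. Their part in the results that follow was not tested, and in bulk RNA fewer cells of a type and less RNA per cell cannot be told apart.

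Secreted and membrane proteins enter the ER through the Sec61 channel and fold there with the help of chaperones, of lectins that hold sugar-bearing proteins, and of isomerases that form disulfide bonds. Proteins that fail to fold are moved back to the cytosol and degraded. When unfolded proteins accumulate, the sensors IRE1 (Ern1), PERK (Eif2ak3) and ATF6 start the unfolded protein response, in which spliced XBP1 and cleaved ATF6 raise chaperone and degradation genes, and PERK slows translation while favouring that of ATF4, which in turn raises Ddit3. In muscle stem cells, PERK signalling through the translation factor eIF2 is known for its role in quiescence.

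The promoter windows of several of these genes share a DNA element. No sequence was used to choose the genes. The list does hold chaperone and degradation genes, the kinds that ATF6 raises. A high share of an element used by ATF6 is therefore no independent result, and it is given as a description. The ER stress response element, CCAAT and CCACG with 9 bases between them, is the known promoter element through which ATF6, with the factor NF-Y, acts. It was searched on both strands from 250 bases before to 50 bases after each RefSeq transcription start (GRCm38.p6). A window was found for 25 of the 30 genes; Sec61a1, Ssr2, Atf6, Hyou1 and Manf were not matched. The element was in the window of 8 of the 25 (32%), Hspa5, Hsp90b1, Dnajc3, Calr, Canx, Creld2, Pdia6 and Syvn1, against 16 of the 8663 tested genes with a window (0.185%) and 0.119% of all 32851 windows. The 16 include these 8. The related ER stress response element II, ATTGG and CCACG with 1 base between them, was in the windows of Herpud1 and Dnajb11, 2 of 25 (8%), against 8 of 8663 genes (0.0923%) and 0.0365% of windows. TGACGTGG, the core of a site bound by XBP1 and ATF6, was in 0 of 25 windows, 1.09% of those of tested genes and 0.676% of all windows. TTGCATCA, a form of the amino acid response element read by ATF4, was in 1 of 25, that of Herpud1, 0.785% of those of tested genes and 0.895% of all windows. The Herpud1 window held it in addition to element II, and the pair did not overlap.

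The stretches around 5 matches follow in the direction of transcription, with the match in capitals. They are those of Hspa5 (chr2:34772000-34772068, plus strand, match beginning 65 bases before the start), Hsp90b1 (chr10:86705613-86705681, minus strand, 212 bases before), Calr (chr8:84847050-84847118, minus strand, 162 bases before), Syvn1 (chr19:6046507-6046575, plus strand, 44 bases before) and Herpud1 (chr8:94386352-94386412, plus strand, 52 bases before). The first 4 hold the ER stress response element, in Calr in reverse complement, and the last holds element II. Hsp90b1 has a further match, in reverse complement, 107 bases before the start. They were chosen as the chaperones with the highest length-scaled level in the precipitates, a degradation gene and a gene with element II. The Dnajb11 match began 7 bases after the start, inside the transcript, and is not printed.
Hspa5: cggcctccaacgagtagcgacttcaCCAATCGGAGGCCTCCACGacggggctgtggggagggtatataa
Hsp90b1: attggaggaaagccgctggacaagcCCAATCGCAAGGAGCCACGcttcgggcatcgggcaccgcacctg
Calr: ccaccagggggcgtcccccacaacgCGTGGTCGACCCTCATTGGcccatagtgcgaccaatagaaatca
Syvn1: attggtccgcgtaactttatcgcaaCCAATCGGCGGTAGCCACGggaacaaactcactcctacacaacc
Herpud1: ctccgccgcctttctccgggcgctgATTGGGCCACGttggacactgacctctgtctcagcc

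The comparison asks which ER transcripts made up a larger share of the wild type than of the knockout precipitate. Scaling places the typical gene near 0, so fold changes are relative to it. A change in recovery common to all genes would not show. Across the 30 genes, edgeR's quasi-likelihood test, with p-values adjusted over all genes, placed 1 higher in wild type (3.33%, against 1.05% of all genes) and 0 higher in knockout (1.0% of all genes). That gene was Pdia4. DESeq2 placed 2 higher in wild type and 0 in knockout, and limma-voom 0 and 0. At an unadjusted p under 0.05, 11 of 30 were higher in wild type (36.7%, against 10.4% of all genes) and 0 in knockout (9.99%). Without the adjustment such p-values make no call. The wild type libraries lay above both knockout libraries for 16 genes (20.4% of all genes) and below both for 3 (18.1%). 24 of the 30 had a log2 fold change above 0, against 50.3% of all genes, and the median was 0.34 against 0.00317 for all genes. The median was 0.21 without wild type 1 and 0.28 to 0.38 with each of the other libraries left out.

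The differences were small in size. For 25 of the 30 genes the 95% interval of the fold change lay wholly within a 2-fold change in either direction, as it did for 48.8% of all genes, and for 6 it lay within 1.5-fold, against 10.5%. These genes were among the better measured ones, with a median level at the 90.8th percentile of all genes. Together the 30 genes made up 1.39%, 1.24% and 1.30% of the counts in wild type 1 to 3 and 1.06% and 1.09% in knockout 1 and 2. Hspa5 alone was 40.9%, 39.2% and 40.1% of those counts in wild type and 34.0% and 36.1% in knockout.

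**Figure D1:**
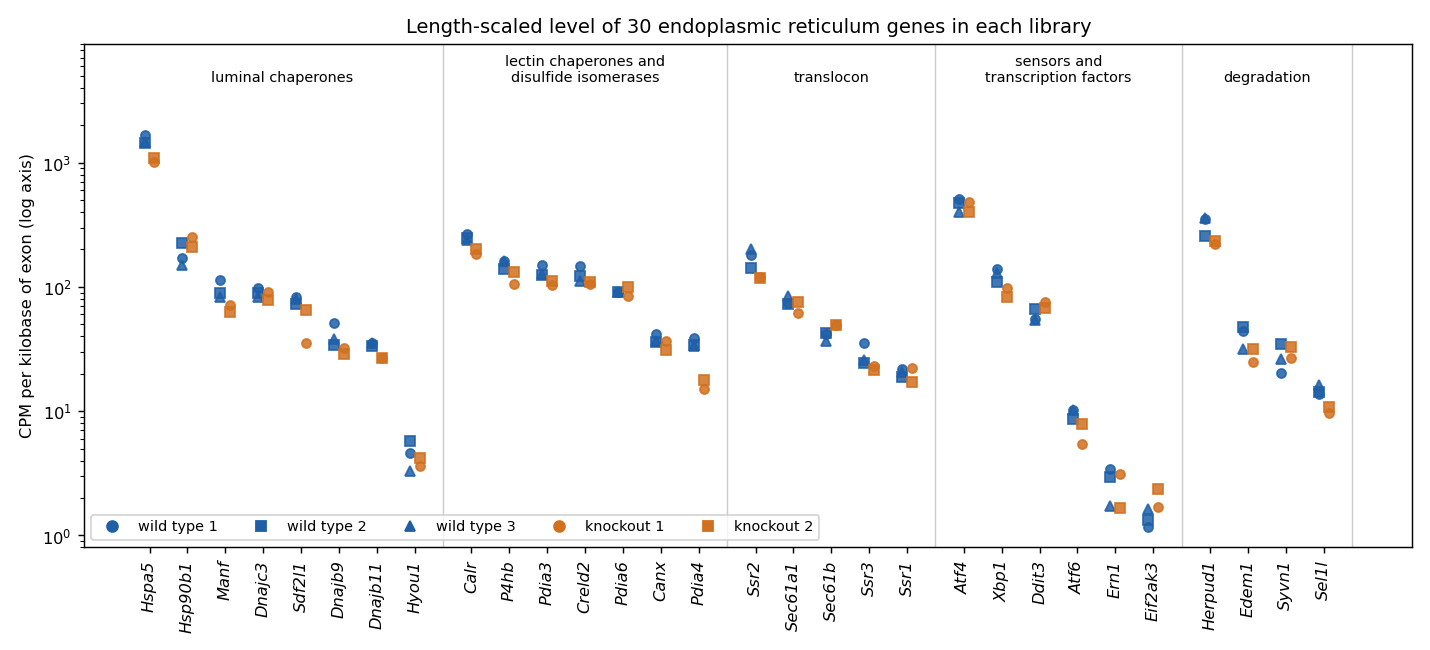
Level of each of the 30 genes in each of the 5 libraries, as CPM per kilobase of exon on a log axis, by role. Hspa5 lies highest in every library and Ern1 and Eif2ak3 lowest, and the libraries of one gene lie close together against the distance between genes.

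Scaled by exon length, the genes lay far apart in the precipitates. How well the antibody recovered the RNA of each gene was not measured, so this order need not be that in the cell. Hspa5 was highest at 1514 and 1054 CPM per kilobase in wild type and knockout (group means), followed by the transcription factor gene Atf4 at 461 and 441, the degradation gene Herpud1 at 323 and 227, the chaperone gene Calr at 250.1 and 193 and Hsp90b1 at 183 and 229.6. The last 3 stood in this order in the wild type means, whereas in the knockout means Hsp90b1 came before both. The order of the first 2 was the same in all 5 libraries. The sensors lay at the bottom, with Atf6 at 9.64 and 6.67, Ern1 at 2.71 and 2.39 and Eif2ak3 at 1.37 and 2.01 CPM per kilobase. Ern1 was above Eif2ak3 in 4 libraries and below it in knockout 2. Hyou1, a chaperone that exchanges nucleotide on BiP, was the only chaperone gene in that range, at 4.57 and 3.94 CPM per kilobase.

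Among the luminal chaperones, Hspa5, which encodes the Hsp70 chaperone BiP (chromosome 2, 34771970 to 34776531, plus strand, mm10), had 5812, 5016 and 5131 CPM in wild type 1 to 3 and 3551 and 3855 CPM in knockout 1 and 2. Every wild type library lay above both knockout libraries. The means were 5319.8 ± 430.3 (SD, n = 3) against 3703 ± 215 CPM (SD, n = 2), 1.44-fold higher in wild type, which did not pass edgeR's quasi-likelihood test (log2 fold change 0.52, SE 0.17, adjusted p = 0.115), with a 95% interval of 0.15 to 0.90. With DESeq2 in place of edgeR it passed, at a log2 fold change of 0.50 and an adjusted p of 0.0383. Part of Hspa5 lies within the span of Rabepk, so some reads could belong to either.

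Sdf2l1, a BiP cofactor that keeps clients soluble, had 91.9, 80.6 and 89.0 CPM in wild type 1 to 3 and 39.0 and 71.9 CPM in knockout 1 and 2. Knockout 1 stood lowest, and the groups did not overlap. The difference did not pass edgeR's test (log2 fold change 0.68, SE 0.25, adjusted p = 0.154), and the log2 fold change was 0.28 without knockout 1 and 1.16 without knockout 2. Manf, a small secreted protein that binds BiP, had 404, 315 and 294 against 252 and 222 CPM, again without overlap and without a call (log2 fold change 0.51, SE 0.20, adjusted p = 0.168, edgeR). Its exons reach into the spans of Dcaf1 and of a noncoding gene. The J-domain cochaperones of BiP, Dnajb9 and Dnajb11, were likewise higher in each wild type library than in both knockout libraries, and did not pass either. Dnajb9 had 95.5, 63.2 and 70.9 against 59.7 and 53.8 CPM (log2 fold change 0.43), and Dnajb11, which overlaps a noncoding gene, had 115, 108 and 115 against 87.3 and 85.9 CPM (0.38).

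The remaining chaperones overlapped between the groups. Hsp90b1, the ER Hsp90 known as GRP94, had 691, 917 and 604 against 1009.9 and 841 CPM, with knockout 1 the highest library and wild type 2 above knockout 2. Its log2 fold change of -0.33 (95% interval -0.76 to 0.10, edgeR adjusted p = 0.385) was the only one below 0 among the 8. Dnajc3, the cochaperone P58IPK, had 512, 461 and 428 against 471 and 406 CPM and a log2 fold change of 0.09 (95% interval -0.29 to 0.48), and Hyou1 had 33.4, 41.6 and 23.9 against 26.4 and 30.5 CPM and 0.22. 0 of the 8 luminal chaperones passed the edgeR test in either direction, and their median log2 fold change was 0.40. At an unadjusted p under 0.05, 3 were higher in wild type (37.5%, against 10.4% of all genes) and 0 in knockout (9.99%).

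The lectin chaperones and disulfide isomerases held the 1 gene that passed. Pdia4 (chromosome 6, 47796142 to 47813512, minus strand, mm10), the isomerase ERp72, had 96.0, 84.4 and 82.5 CPM in wild type 1 to 3 and 37.5 and 43.9 CPM in knockout 1 and 2. The lowest wild type library lay far above the higher knockout library. The means were 87.6 ± 7.32 (SD, n = 3) against 40.7 ± 4.53 CPM (SD, n = 2), 2.15-fold higher in wild type, with 95% interval 0.66 to 1.57 on the log2 scale (log2 fold change 1.11, SE 0.21, adjusted p = 0.0198, edgeR quasi-likelihood test). The knockout values rest on 358 and 138 counts. Leaving out wild type 1 gave 1.04 at an edgeR adjusted p of 0.0717, leaving out wild type 3 gave 1.15 at 0.0653, and leaving out knockout 1 gave 1.00 at 0.0796, so the call was lost each time. It was missed too with limma-voom (1.16, adjusted p = 0.147). The microRNA entry Mir704 overlaps an exon of Pdia4. None of the 4 sequence elements searched was in the Pdia4 window.

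The other isomerases had smaller fold changes and none passed. P4hb, the protein disulfide isomerase that is also a subunit of prolyl 4-hydroxylase, had 458, 401 and 462 against 300.0 and 374 CPM, and Pdia3, which works with the lectins on glycoproteins, had 469, 394 and 401 against 326 and 351 CPM. Both were higher in each wild type library than in both knockout libraries, with log2 fold changes of 0.39 and 0.32. Pdia6 had 343, 342 and 341 against 313 and 375 CPM and differed least of all 30 genes, with a log2 fold change of -0.01 and a 95% interval of -0.39 to 0.37. Exons of Pdia3 and Pdia6 reach into the spans of Catsper2 and Atp6v1c2. The difference between Pdia4 and the other isomerases was not tested. Creld2, an ER stress-induced protein with isomerase activity, had 202, 167 and 152 against 143 and 149.5 CPM and a log2 fold change of 0.25.

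Calr, the soluble lectin calreticulin, had 762, 713 and 686 CPM in wild type 1 to 3 and 527 and 584 CPM in knockout 1 and 2, and the groups did not overlap. Its means were 720.4 ± 38.4 (SD, n = 3) against 556 ± 39.8 CPM (SD, n = 2), which did not pass (log2 fold change 0.38, SE 0.17, adjusted p = 0.240, edgeR). Canx, the membrane-bound lectin calnexin, had 196, 169 and 172 against 171 and 145 CPM, so that knockout 1 lay above wild type 2, and its log2 fold change was 0.18 (95% interval -0.22 to 0.58). Over these 7 genes, Pdia4 was thus the 1 call and the other 6 did not pass, at a median log2 fold change of 0.32.

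**Figure D2:**
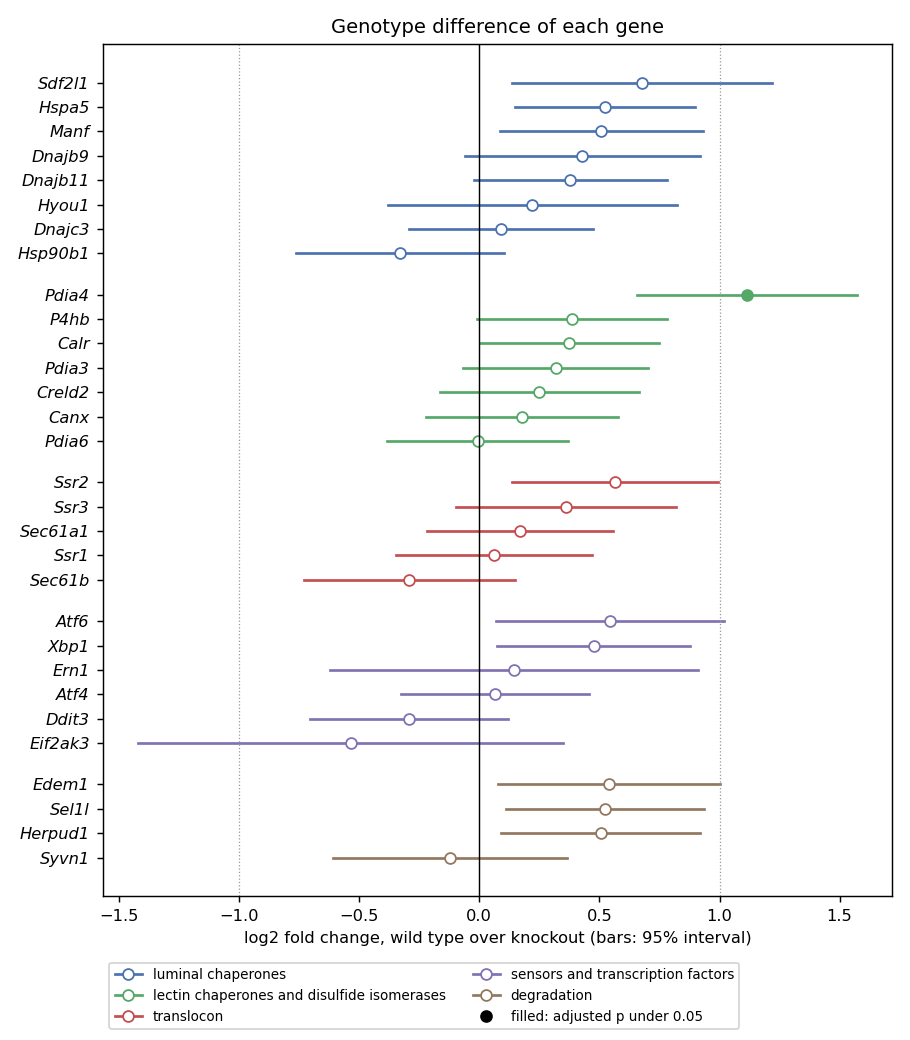
Log2 fold change of each gene, wild type over knockout, with its 95% interval from the edgeR fit, ordered within each role. Pdia4 is the only filled point (adjusted p under 0.05), and 25 of 30 intervals lie between the dotted lines at -1 and 1.

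Of the translocon genes, Ssr2, a subunit of the translocon-associated protein complex, had 209.5, 167 and 235 CPM in wild type 1 to 3 and 139 and 136 CPM in knockout 1 and 2. Wild type 3 was highest, and the groups did not overlap. The difference did not pass (log2 fold change 0.57, SE 0.20, adjusted p = 0.133, edgeR). The other subunits were Ssr3, with 148, 102 and 107 against 95.8 and 89.1 CPM and a log2 fold change of 0.36, and Ssr1, with 203, 174 and 194 against 206 and 159 CPM, overlapping groups and a log2 fold change of 0.06. Ssr1 overlaps a noncoding gene. Sec61a1, the pore of the channel, had 478, 467 and 538 against 398 and 481 CPM and a log2 fold change of 0.17 (95% interval -0.22 to 0.56).

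Sec61b, a small tail-anchored subunit of the same channel, lay on the other side of 0. It had 53.1, 54.4 and 46.8 against 63.1 and 62.7 CPM, so both knockout libraries were above all wild type libraries, with a log2 fold change of -0.29 (edgeR adjusted p = 0.458). 0 of 5 translocon genes passed in either direction by edgeR. At an unadjusted p under 0.05, 1 was higher in wild type (20%, against 10.4% of all genes) and 0 in knockout (9.99%). The median log2 fold change was 0.17. The median moved to 0.0959 without wild type 3, 0.26 without knockout 1 and 0.31 without knockout 2.

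Among the sensors and transcription factors, log2 fold changes lay on both sides of 0. Differences between the branches of the stress response were not tested. Atf6, a sensor that is cut in the Golgi to free a transcription factor, had 93.6, 79.4 and 94.0 CPM in wild type 1 to 3 and 50.4 and 72.8 CPM in knockout 1 and 2. Xbp1, whose RNA is spliced by IRE1, had 452, 357 and 416 against 316 and 271 CPM. For both, all wild type libraries lay above both knockout libraries, and neither passed edgeR's test (Atf6 log2 fold change 0.54, SE 0.22, adjusted p = 0.187; Xbp1 log2 fold change 0.48, SE 0.19, adjusted p = 0.175). Counts over the gene cannot separate spliced from unspliced Xbp1.

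Atf4, the transcription factor of the PERK branch, had 883, 808 and 695 CPM in wild type 1 to 3 and 824 and 696 CPM in knockout 1 and 2. The groups overlapped, and the log2 fold change was 0.06 with a 95% interval of -0.33 to 0.46. Ddit3, the ATF4 target CHOP, had 95.2, 114 and 92.2 against 129.5 and 117 CPM, with every knockout library above every wild type library, and a log2 fold change of -0.29 (edgeR adjusted p = 0.419). Exons of Ddit3 reach into the spans of Mars1 and Mbd6. Eif2ak3, which encodes PERK, had 6.30, 7.18 and 8.86 against 9.11 and 12.7 CPM, again highest in both knockout libraries. These rest on 87 and 40 counts, knockout 1 lay close to wild type 3, and the interval of the log2 fold change ran from -1.42 to 0.35. Ern1, which encodes IRE1, had 28.0, 24.3 and 14.1 against 25.4 and 13.7 CPM, with wild type 3 and knockout 2 low and the rest close together. 0 of these 6 genes passed by edgeR. At an unadjusted p under 0.05, 2 were higher in wild type (33.3%, against 10.4% of all genes) and 0 in knockout (9.99%). The median log2 fold change was 0.10. The median changed sign without wild type 1 (-0.0458) and without knockout 2 (-0.13), and was 0.26 without wild type 3 and 0.24 without knockout 1.

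The degradation genes had a median of 0.51 over 4 genes. It was the highest of the 5 roles in the fit by genotype alone over all libraries, but not without wild type 3 (0.43, against 0.44 for the luminal chaperones). 0 of the 4 passed by edgeR. At an unadjusted p under 0.05, 3 were higher in wild type (75%, against 10.4% of all genes) and 0 in knockout (9.99%). Sel1l, the adaptor of the membrane ubiquitin ligase complex, had 118, 121 and 138 CPM in wild type 1 to 3 and 83.2 and 92.3 CPM in knockout 1 and 2. The groups did not overlap (log2 fold change 0.52, SE 0.19, adjusted p = 0.149, edgeR). Herpud1, a membrane protein of the same complex, had 818, 601 and 838 against 519 and 541 CPM, also without overlap (log2 fold change 0.51, SE 0.19, adjusted p = 0.165, edgeR).

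Edem1, a lectin that hands misfolded glycoproteins to degradation, had 257, 278 and 186 against 145 and 186 CPM, so that wild type 3 lay just below knockout 2 (log2 fold change 0.54, SE 0.22, adjusted p = 0.181, edgeR). Syvn1, the ubiquitin ligase HRD1 and the partner of Sel1l, had 97.3, 165 and 127 against 127 and 156 CPM, with wild type 1 the lowest of all 5 libraries and a log2 fold change of -0.12 (95% interval -0.61 to 0.37). Syvn1 exons reach into the span of Mrpl49.

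The libraries of a group differed in the level of a whole role. The mean log2 CPM of the 30 genes, centred over the libraries, was 0.19, 0.08 and 0.04 in wild type 1 to 3 and -0.18 and -0.13 in knockout 1 and 2. Wild type 1, the deepest library, was the highest and both knockout libraries were below every wild type library. For the lectins and isomerases the values were 0.26, 0.09 and 0.09 in wild type 1 to 3 and -0.29 and -0.16 in knockout 1 and 2, the widest gap between neighbouring libraries of different groups. The degradation genes had 0.08, 0.20 and 0.13 in wild type 1 to 3 and -0.32 and -0.10 in knockout 1 and 2, with knockout 1 apart from the rest. For the sensors and transcription factors the values were 0.11, 0.03 and -0.06 in wild type 1 to 3 and -0.00195 and -0.09 in knockout 1 and 2, and the groups overlapped. No test was made on these means, since the genes were chosen with earlier results known.

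**Figure D3:**
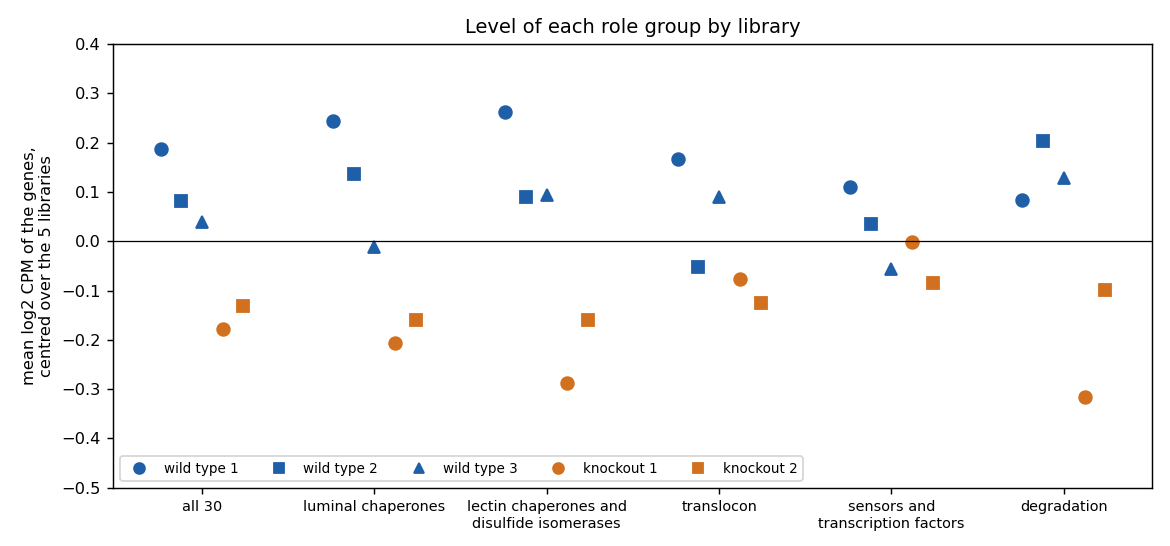
Mean log2 CPM of all 30 genes and of each role in each library, centred over the 5 libraries. The mean of the 30 genes is lower in both knockout libraries than in every wild type library, which does not hold for each single gene. The same is true of the means of the luminal chaperones, the lectin chaperones and isomerases, the translocon and the degradation genes. For the sensors and transcription factors the groups overlap. For the translocon the gap is narrow, with wild type 2 at -0.053 and knockout 1 at -0.077.

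The fold changes were also read by the ER stress response element. The 8 with the element had log2 fold changes from -0.33 for Hsp90b1 to 0.52 for Hspa5, with a median of 0.13, and 5 of 8 were above 0. The 17 genes with a window but no element had a median of 0.38, and 14 of 17 were above 0. The 17 include Herpud1 and Dnajb11, which hold element II. Only exact matches within the window were searched, so variant or more distant sites were not seen. The difference between these sets was not tested. Of the 8 tested genes outside the list whose window holds the element, 4 were above 0, with a median of 0.01. Over all genes, 50.3% were above 0.

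**Figure D4:**
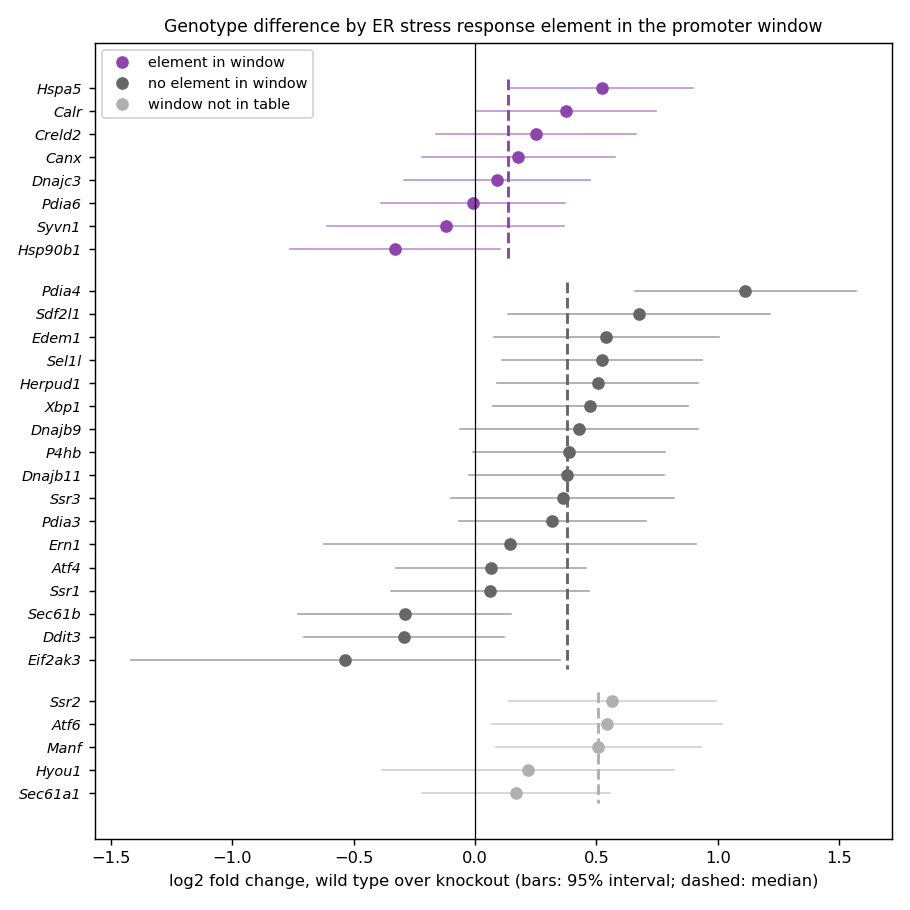
Log2 fold change and 95% interval of the 30 genes, split by whether the promoter window holds the ER stress response element (8 genes), does not (17 genes) or was not in the table (5 genes), with the median of each set as a dashed line. The 8 genes with the element spread from -0.33 to 0.52 on both sides of 0.

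Other genes of the same organelle, from 6 lists of 157 genes in all, were read from the same fit. By edgeR's adjusted p, 7 of the 157 were higher in wild type (4.46%, against 1.05% of all genes), 0 were higher in knockout (1.0% of all genes) and 150 passed neither way. 113 of the 157 had a log2 fold change above 0, against 50.3% of all genes. The median of the 157 was 0.26, against 0.00317 for all genes. By edgeR's test without adjustment, 37 were higher in wild type (23.6%, against 10.4% of all genes) and 8 in knockout (5.10%, against 9.99%). Without wild type 3 or without knockout 1, 0 of the 157 passed as higher in wild type, 1 passed without wild type 1 and 2 without knockout 2, against 12 without wild type 2. With limma-voom 1 passed, Serpinh1.

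Of 25 other chaperones and glycan-processing genes, edgeR placed 2 higher in wild type and 0 in knockout, and 23 passed neither way. DESeq2 placed the same 2 and Fkbp10 higher in wild type and 0 in knockout. Fkbp10 also passed in the edgeR fit with at least 20 counts in every library and after thinning to the depth of knockout 2. Serpinh1, the collagen chaperone HSP47, had 1185, 909 and 1218 against 472 and 534 CPM (log2 fold change 1.13, SE 0.19, adjusted p = 0.0142, edgeR). Mesdc2, a chaperone of LDL receptor family proteins, had 69.3, 54.6 and 65.3 against 27.9 and 29.6 CPM (log2 fold change 1.14, SE 0.23, adjusted p = 0.0251, edgeR). In both, the lowest wild type library was well above the higher knockout library. The list's median was 0.33. The Serpinh1 call was lost without wild type 3 and without knockout 1, and the Mesdc2 call was kept only without wild type 2 and otherwise lost with any 1 library left out.

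Of 31 other genes of targeting, translocation and N-glycosylation, edgeR placed 2 higher in wild type and 0 in knockout, and 29 passed neither way. DESeq2 placed Srprb, Rpn1, Ddost and Spcs2 higher in wild type and 1, Sec11c of the signal peptidase, higher in knockout. Ddost also passed in the edgeR fit with at least 20 counts in every library, after thinning and without wild type 2. Spcs2 passed there without wild type 2. Srprb, a membrane subunit of the signal recognition particle receptor, had 72.6, 51.4 and 74.8 against 35.5 and 26.1 CPM (log2 fold change 1.09, SE 0.25, adjusted p = 0.0431, edgeR). Rpn1, a subunit of the oligosaccharyltransferase that works at the channel, had 119, 82.8 and 104 against 57.7 and 48.4 CPM (log2 fold change 0.94, SE 0.22, adjusted p = 0.0474, edgeR). Both calls were lost with total counts in place of TMM and with each library left out other than wild type 2, and that of Rpn1 also with RLE or upper-quartile factors. The list's median was 0.20.

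Of 28 other stress signalling genes, edgeR placed 2 higher in wild type and 0 in knockout, and 26 passed neither way. With DESeq2 the same 2 were higher in wild type. DESeq2 placed 3 higher in knockout, Eif2ak4 (the amino acid sensor GCN2), Asns (an asparagine synthetase induced by ATF4) and Nupr1, named after their values were seen, and 1 of them, Eif2ak4, also passed in the edgeR fit with total counts, with at least 20 counts in every library, after thinning to the depth of knockout 2 and without wild type 2. Cebpb, a transcription factor that partners ATF4 and CHOP, had 3559.6, 2244 and 2604 against 1455 and 1362 CPM (log2 fold change 0.99, SE 0.21, adjusted p = 0.0314, edgeR). Ppp1r15b, the constitutive subunit of the phosphatase that reverses PERK's mark on eIF2, had 154, 86.6 and 127 against 52.0 and 62.7 CPM (log2 fold change 1.10, SE 0.25, adjusted p = 0.0410, edgeR). Both were lost with each library left out other than wild type 2. The list's median was 0.17.

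Of 29 genes of ER export and retrieval, edgeR placed 1 higher in wild type and 0 in knockout. The other 28 did not pass, and the median was 0.29. Surf4, a cargo receptor that carries soluble proteins out of the ER, had 292, 205 and 251 against 96.3 and 124 CPM (log2 fold change 1.19, SE 0.21, adjusted p = 0.0152, edgeR), and its exons reach into the spans of Surf2 and Stkld1. Its call did not survive leaving out wild type 1, wild type 3 or knockout 1. Copa, a subunit of the coat that returns proteins to the ER, overlaps Ncstn and had 193, 232 and 258 against 151 and 128 CPM and an edgeR adjusted p of 0.0740. DESeq2 placed Surf4, Copa and Tmed10 higher in wild type and 0 genes of this list higher in knockout. Tmed10 also passed in the edgeR fit without wild type 2.

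Of 19 other disulfide formation genes and 25 other degradation genes, 0 passed in either direction by edgeR, and DESeq2 placed 1 of each list higher in wild type and 0 in knockout. Unadjusted edgeR p-values were under 0.05 for 4 of the former, all higher in wild type (21.1%, against 10.4% of all genes). For the latter this held for 9 genes, 6 higher in wild type (24%) and 3 in knockout (12%, against 9.99% of all genes). With the smallest p in their lists, the isomerase gene Txndc5, which overlaps Bmp6, had 123, 93.4 and 115 against 49.8 and 70.6 CPM (edgeR adjusted p = 0.0553) and the ubiquitin-conjugating enzyme gene Ube2g2 had 177, 123 and 165 against 86.9 and 98.6 CPM (edgeR adjusted p = 0.0741). In other edgeR fits, Txndc5 passed with at least 20 counts in every library, after thinning and without wild type 2. Ube2g2 passed without wild type 2. Gpx7, an ER peroxidase, had the next smallest p among the disulfide formation genes (log2 fold change 0.74). The medians were 0.23 and 0.24.

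**Figure D5:**
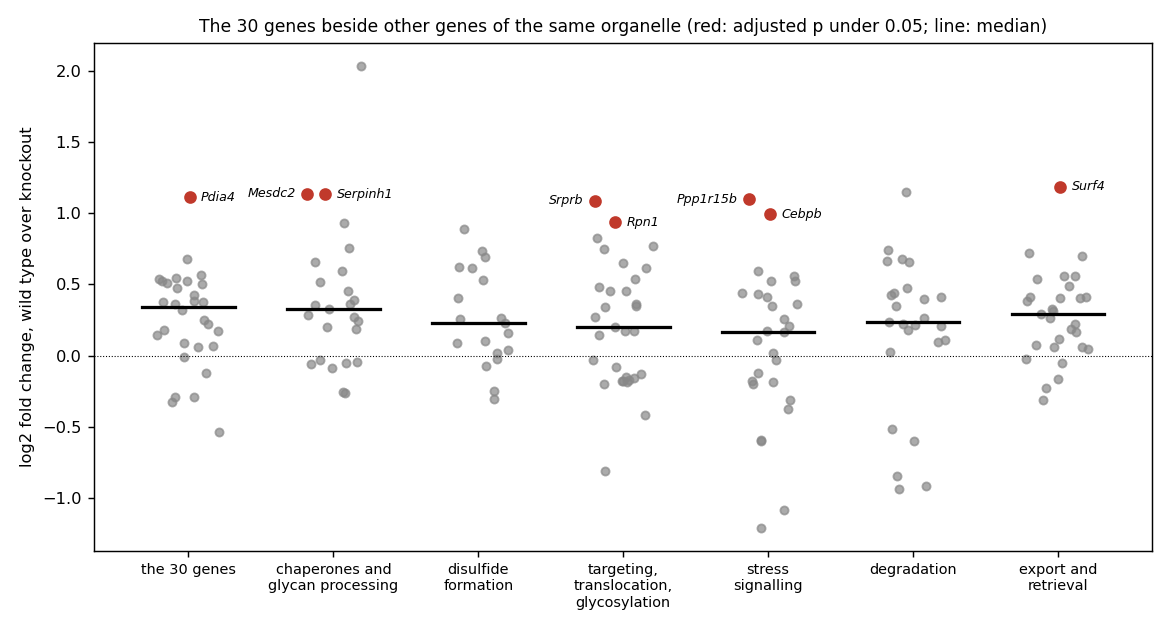
Log2 fold change, wild type over knockout, of the 30 genes and of the 6 other lists, 1 point per gene, with the median as a line and genes at an adjusted p under 0.05 in red. The medians lie between 0.17 and 0.34, and the 8 red points lie between 0.94 and 1.19.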

How the data were processed

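The authors' tools, per the submitters' processing notes, were Trim Galore, STAR, Subread's featureCounts and edgeR, on mm10. Which versions, annotation and strand setting they used is not given in the sources used here. Reads of overlapping genes therefore cannot be told apart. The authors deposited unnormalized whole-number counts for each gene with exon coordinates and an exon length in bases. No gene's third-highest CPM was below 3.02, so the table had been filtered on expression and could not hold a gene present in knockout alone.

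Counts were analysed in R 4.3.3 with edgeR 4.0.16: filterByExpr (which kept all 11194 genes), TMM scaling, glmQLFit and the two-sided quasi-likelihood test for genotype over all 5 libraries, with Benjamini-Hochberg adjustment over all genes and a threshold of 0.05. Fold changes are wild type over knockout, with SE from the coefficient and its F statistic and 14 degrees of freedom. DESeq2 1.42.0, limma-voom (limma 3.58.1), other scalings and filters, thinning to 3091302 counts, a replicate block and each library left out were tried. The fits were also run on simulated counts drawn with the spread estimated from these same libraries. The changes put into them were larger than most of those described here, so that run does not check such calls. Date-like symbols (18) were restored through RefSeq, which matched 10824 of 10826 Entrez identifiers. The members and lists were chosen with earlier results of these data known. Full values were given for members at an unadjusted p under 0.05, the 2 smallest p and the highest length-scaled level per role; from other lists, genes past the threshold and the 2 smallest p were named. 1 gene that this rule names is not reported here. The remaining members were described because all 30 were to be accounted for.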

Additional observations from a re-analysis of the deposited data

How the results depend on the processing

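The number of the 30 genes higher in wild type, 1, was 2 with DESeq2 (Hspa5 and Pdia4), 0 with limma-voom, 2 in the fit with a replicate block (Edem1 and Pdia4) and 0 to 1 with each library left out. The number higher in knockout was 0 throughout. With limma-voom the 30 genes had an adjusted p of 0.147 at best, that of Pdia4. The median log2 fold change of the 30 was 0.215 to 0.376 with a library left out. By role these ranges were 0.29 to 0.48 for luminal chaperones, 0.23 to 0.37 for lectin chaperones and isomerases, 0.10 to 0.31 for the translocon, -0.13 to 0.26 for sensors and transcription factors and 0.41 to 0.57 for degradation. The sensor median was 0.021 with limma-voom and 0.31 with the replicate block. With that block the degradation median was 0.4274 and that of the luminal chaperones 0.4278. Deviations of same-numbered libraries correlated at 0.0496 and 0.0401, which showed no pairing by replicate number. With knockout 1 and 2 alone, whose deviations mirror each other, this is a weak check. In the block fit wild type 3 stood alone in its block. Of the 157 other ER genes, 14 were higher in wild type with DESeq2, 1 with limma-voom and 0 to 12 with a library left out; 4 were higher in knockout with DESeq2, 3 (Eif2ak4, Ngly1 and Aup1) with the replicate block, 1 with total counts, 1 with at least 20 counts in every library, 1 after thinning and 0 to 1 with a library left out. Their median was 0.215 with total counts and 0.221 after thinning. Over all genes, 433 were higher in wild type and 457 in knockout with DESeq2, 8 and 14 with limma-voom, 178 and 187 with at least 20 counts in every library, and 288 and 324 with the replicate block. After thinning, 175 were higher in knockout. With a library left out, 11 to 176 were higher in wild type and 23 to 172 in knockout. Genes near 0 changed sign in some settings. Pdia6 was at 0.019 with limma-voom and 0.012 with at least 20 counts in every library, and Ern1 at -0.0093 with limma-voom. With a library left out, Dnajc3 ran from -0.012 to 0.20, Pdia6 from -0.13 to 0.13, Ssr1 from -0.11 to 0.26, Ern1 from -0.20 to 0.69, Atf4 from -0.051 to 0.19 and Syvn1 from -0.33 to 0.042. The cause of these changes was not tested. Knockout 2, at 3091302 counts, limits what can be seen for the sensors, which had as few as 40 counts there.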

Other observations

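Of the 28 stress signalling genes outside the 30, 5 were higher in wild type (17.9%, against 10.4% of all genes) and 4 in knockout (14.3%, against 9.99%) at an unadjusted p under 0.05 in the edgeR fit. Those 4, named after their values were seen, were Asns, the asparagine synthetase induced by ATF4 (log2 fold change -1.21, adjusted p = 0.100), Eif2ak4, the amino acid sensor GCN2 (-1.09, adjusted p = 0.0554), Nupr1 (-0.60, adjusted p = 0.112) and Ddit4, an inhibitor of mTORC1 (-0.60, adjusted p = 0.157). None of the 4 passed the threshold in that fit, while DESeq2 called Eif2ak4, Asns and Nupr1.

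Further subunits of complexes whose members are described above had values below 0.05 before adjustment, also picked after their values were seen. Ddost and Rpn2, subunits of the oligosaccharyltransferase, had log2 fold changes of 0.82 and 0.46. Spcs2 and Sec11a, of the signal peptidase, had 0.75 and 0.62, whereas Sec11c, the alternative catalytic subunit of that peptidase, had -0.81 (edgeR adjusted p = 0.0880). Other subunits of these complexes, without such a p-value, are not given. Of the 31 genes of their list, 12 had a log2 fold change below 0. At an unadjusted p under 0.05 by edgeR, 7 of the 31 were higher in wild type (22.6%, against 10.4% of all genes). In knockout 1 was higher (3.23%, against 9.99%).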
